A study of Mus musculus with 18 samples.

Results

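The miR-99/100 and miR-125 families were followed through small RNA libraries of 3 mouse brain cell fractions. The members were the guide strands mmu-miR-99a-5p, mmu-miR-99b-5p, mmu-miR-100-5p, mmu-miR-125a-5p and mmu-miR-125b-5p (written below without the species prefix), chosen by name, and these were 5 of the 1978 mature miRNAs in a count table of 203513 features. All 5 had counts in each of the 18 libraries. The mice were on a C57BL/6 background, were about 10 months old and were either wild type (WT) or homozygous for Atxn2-CAG100-KIN (KIN), a knock-in of an expanded CAG repeat into Atxn2 that models spinocerebellar ataxia type 2 and is carried by all cell types alike. From single dissociated brains, magnetic beads took microglia by CD11b, then astrocytes by ACSA-2, and neurons were kept as the flow-through after beads against other cells and CD31. Each of the 6 groups (Astrocytes, Microglia or Neurons, WT or KIN) had 3 libraries.

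MicroRNAs are short RNAs that guide Argonaute proteins to messenger RNAs, mostly through the seed, and so lower the stability and translation of those messengers. A hairpin precursor is cut into a guide strand and a less stable passenger strand. The miR-99/100 family is known for sites in the messengers of the growth kinase mTOR, and the miR-125 family, the relatives of nematode lin-4, for sites in the messenger of the RNA-binding protein Lin28, which blocks let-7 maturation. In the mouse genome each miR-99/100 hairpin lies upstream of a let-7 hairpin and a miR-125 hairpin, so that 3 clusters hold both families. miR-125b is known to be abundant in the brain, in astrocytes among other cells.

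The mature sequences, from RefSeq, are shown because the members fall into only 2 seed groups and because a single base separates 2 of them. Capitals mark the seed, bases 2 to 8 from the 5′ end, and each sequence reads 5′ to 3′.
miR-99a-5p: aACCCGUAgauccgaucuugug
miR-99b-5p: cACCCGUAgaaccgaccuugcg
miR-100-5p: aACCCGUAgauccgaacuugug
miR-125a-5p: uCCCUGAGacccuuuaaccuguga
miR-125b-5p: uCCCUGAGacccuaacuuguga
Counted from 1 at the 5′ end, miR-99a-5p and miR-100-5p differed by U16A alone. miR-99b-5p differed from miR-99a-5p by A1C, U11A, U16C and U21C, and miR-125a-5p and miR-125b-5p shared their first 13 bases. The authors kept reads of at least 20 bases, which reach past position 16 when they start at the annotated 5′ end. No other mature miRNA in the table had the seed of the miR-99/100 family. The seed of the miR-125 family was also carried by miR-351-5p, which reached at most 49.1 counts per 1000000 counts of its library (CPM), and by miR-6367 and miR-6394, which had 0 counts.

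The 6 hairpins were located in GRCm39, the build that the authors' mm39 also names. Mir99a (ENSMUSG00000065530, chr16:77395824-77395888, plus strand), Mirlet7c-1 and Mir125b-2 (ENSMUSG00000065472, chr16:77443161-77443231) lay in introns of the noncoding host gene Mir99ahg, within 47408 bases. Mir100 (ENSMUSG00000093011, chr9:41442721-41442800, plus strand), Mirlet7a-2 and Mir125b-1 (ENSMUSG00000093354, chr9:41493222-41493298) lay in introns of the noncoding host gene Mir100hg, within 50578 bases, and Mir125b-1 also fell inside an exon of Gm28119-201. Mir99b (ENSMUSG00000065396, chr17:18050450-18050519, plus strand), Mirlet7e and Mir125a (ENSMUSG00000065479, chr17:18051074-18051141) were packed into 692 bases of Spaca6, a gene for a sperm membrane protein. Mir99b lay in an intron there, while the bases of miR-125a-5p fell within an exon of the transcript Spaca6-203. Because the 2 Mir125b hairpins give the same guide strand, a count of miR-125b-5p does not say which of them it came from. Mir100 is overlapped on the other strand by an exon of Gm48742-201, and the authors' counting did not use strand. The bases of miR-125b-1-3p are likewise overlapped on the other strand by exons of Gm69589. Those of miR-125b-2-3p lie within an exon of Gm60413-201 on the same strand.

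Library totals ranged from 1211118 counts (Neurons WT replicate 1) to 4316748, and mature miRNAs took 5.42% to 9.30% of them in the group means of the glial fractions but only 1.33% and 1.69% in Neurons WT and KIN. The fractions were checked by the summed level of miRNAs typical of cell types. The 3 myeloid miRNAs (miR-142a-3p, miR-142a-5p and miR-223-3p) reached 2835 to 5914 CPM in the 6 microglia libraries and 10.2 to 48.5 CPM in the 6 astrocyte libraries. The 3 neuronal ones (miR-124-3p, miR-128-3p and miR-138-5p) reached 1036 to 3150.5 CPM in astrocyte libraries but only 48.7 to 228 CPM in neuron libraries, so the label Neurons was not borne out by them, and the oligodendrocyte miRNAs (miR-219a-2-3p and miR-338-3p) were also highest in astrocyte libraries, at 830.4 to 2148 CPM. Xist was at 1.27 to 2.13 CPM in KIN replicate 1 of all 3 fractions and at 7.59 to 36.3 CPM in the other 15 libraries, although the mice were described as WT and KIN littermates paired by sex, most of the pairs male and the rest female. These are bulk fractions, in which fewer cells of a type and less RNA per cell cannot be told apart.

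miR-125b-5p was the most abundant member everywhere and the most abundant of all mature miRNAs in Astrocytes WT, Astrocytes KIN and Neurons WT. Levels here are CPM of the library total. In Astrocytes WT it stood at 5994, 7084 and 6859 CPM (6646 ± 575, mean ± SD, n = 3), and in Astrocytes KIN at 12392, 11312 and 10166 CPM (11290.3 ± 1113). In Microglia WT it stood at 2213, 2157 and 2451 CPM (2273 ± 156) and in Microglia KIN at 1939, 2161 and 2157 CPM (2086 ± 127). In Neurons WT it stood at 945, 2173 and 1434 CPM (1517 ± 619) and in Neurons KIN at 2339, 1644 and 2001 CPM (1995 ± 348). Every astrocyte library lay above every microglia and neuron library, the 2 astrocyte groups did not overlap, and the microglia and neuron groups overlapped each other. Among mature miRNAs it ranked 4 in Microglia WT, 7 in Microglia KIN and 2 in Neurons KIN.

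miR-125a-5p, the same family's product of the chromosome 17 cluster, was the lower of the pair. It stood at 1169, 1545 and 1267 CPM in Astrocytes WT and at 1999.6, 1888 and 1444 CPM in Astrocytes KIN, which overlapped. It stood at 609.7, 598 and 711 CPM in Microglia WT, 603, 542 and 551 CPM in Microglia KIN, 272, 354 and 209 CPM in Neurons WT and 356, 226 and 299 CPM in Neurons KIN. On CPM of the library total, the order of fractions was astrocytes, microglia, neurons, with no overlap between fractions. On mature miRNA counts alone, Neurons against Microglia turned upward, at a log2 fold change of 0.63 ± 0.40 in WT and 0.99 ± 0.30 in KIN. The share of miR-125b-5p among the counts of both miR-125 members was 83.4% ± 1.18 in Astrocytes WT, 86.5% ± 0.980 in Astrocytes KIN, 78.1% ± 0.486 in Microglia WT, 78.6% ± 2.05 in Microglia KIN, 83.7% ± 5.22 in Neurons WT and 87.2% ± 0.593 in Neurons KIN.

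miR-99a-5p, the guide strand of the chromosome 16 cluster, was no lower in microglia than in astrocytes. It stood at 733, 1109 and 867 CPM in Astrocytes WT (903 ± 190.3) and at 1889.7, 1514 and 1433 CPM in Astrocytes KIN (1612 ± 243). It stood at 1349.8, 1278 and 1566 CPM in Microglia WT (1398 ± 150.1) and at 1399, 1882 and 2004 CPM in Microglia KIN (1762 ± 319.9). It stood at 109, 260.2 and 151 CPM in Neurons WT (173 ± 78) and at 378, 161 and 223 CPM in Neurons KIN (254 ± 112). All Microglia WT libraries lay above all Astrocytes WT libraries, the KIN glial groups overlapped, and the neuron libraries lay lowest. It ranked 10 among mature miRNAs in Microglia WT and 21 in Astrocytes WT.

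miR-100-5p, the chromosome 9 counterpart that differs from miR-99a-5p by a single base, was close to absent from microglia. It stood at 429, 707 and 539 CPM in Astrocytes WT (558 ± 140.1) and at 1108, 1036 and 1039 CPM in Astrocytes KIN (1061 ± 40.5). It stood at 14.1, 12.4 and 13.4 CPM in Microglia WT (13.3 ± 0.868) and at 5.40, 12.0 and 15.1 CPM in Microglia KIN (10.9 ± 4.97), which are sums of 141 and 134 counts over 3 libraries. It stood at 116, 178 and 57.6 CPM in Neurons WT (117 ± 60.1) and at 129, 79.5 and 107 CPM in Neurons KIN (105 ± 24.9). The 3 fractions did not overlap, the 2 astrocyte groups did not overlap, and WT and KIN overlapped in microglia and in neurons. Its rank among mature miRNAs was 33 in Astrocytes WT, 25 in Neurons WT and 150 in Microglia WT. miR-9-5p, a miRNA characteristic of neural cells, was likewise low in microglia, at 74.0 to 218 CPM in WT and 52.7 to 62.1 CPM in KIN against 5031 to 7941 CPM in astrocytes. How much of the miR-100-5p in microglia libraries came with other cells was not tested. Nor was it tested how much of it was miR-99a-5p misread at the single base that differs.

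miR-99b-5p was the least abundant member outside microglia. It stood at 202, 327 and 229 CPM in Astrocytes WT, 371, 342 and 279 CPM in Astrocytes KIN, 173, 158 and 189 CPM in Microglia WT, 174, 246 and 230.0 CPM in Microglia KIN, 45.4, 73.1 and 34.7 CPM in Neurons WT and 70.0, 43.7 and 58.1 CPM in Neurons KIN. Neuron libraries lay below all others, and within each genotype the astrocyte libraries lay above the microglia libraries, while across genotypes the astrocyte range of 202 to 371 CPM and the microglia range of 158 to 246 CPM overlapped.

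**Figure D1:**
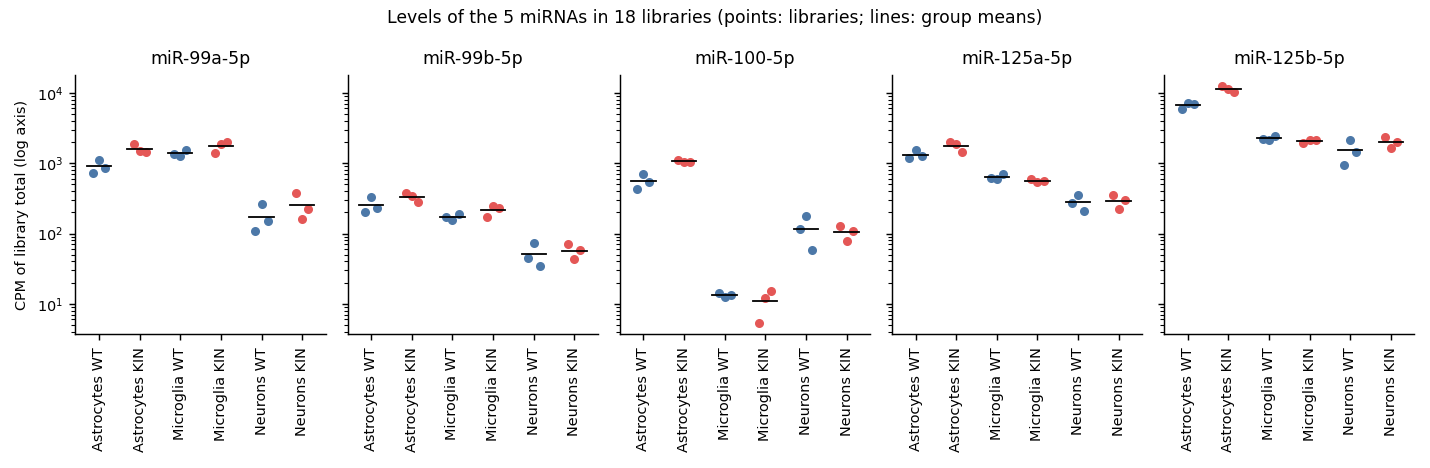
CPM of the library total (log axis) for each of the 5 miRNAs in the 18 libraries, with blue points for WT libraries, red points for KIN libraries and black lines for group means. miR-125b-5p is highest in astrocytes, at 5994 to 12392 CPM, while miR-100-5p falls to between 5.40 and 15.1 CPM in microglia and miR-99a-5p does not.

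As a share of the counts of the miR-99/100 family, miR-100-5p made up 31.4%, 33.0% and 32.9% in Astrocytes WT and 32.9%, 35.8% and 37.8% in Astrocytes KIN. It made up 0.918%, 0.855% and 0.755% in Microglia WT and 0.342%, 0.563% and 0.673% in Microglia KIN, where miR-99a-5p took 88.2% ± 0.354 and 88.6% ± 0.571. It made up 42.8%, 34.8% and 23.7% in Neurons WT and 22.4%, 28.0% and 27.6% in Neurons KIN. These shares do not depend on how libraries are scaled to each other. The log2 ratio of miR-100-5p to miR-99a-5p was -0.70 ± 0.06 in Astrocytes WT and -6.71 ± 0.15 in Microglia WT, -0.59 ± 0.16 in Astrocytes KIN and -7.45 ± 0.50 in Microglia KIN, and -0.62 ± 0.74 in Neurons WT and -1.21 ± 0.29 in Neurons KIN (mean ± SD, n = 3). Astrocytes and microglia did not overlap in either genotype (exact two-sided permutation test, p = 0.1, the smallest that 3 against 3 libraries can give, adjusted p = 0.171 over 36 ratio comparisons). Of these 36 comparisons, 21 had no overlap.

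**Figure D2:**
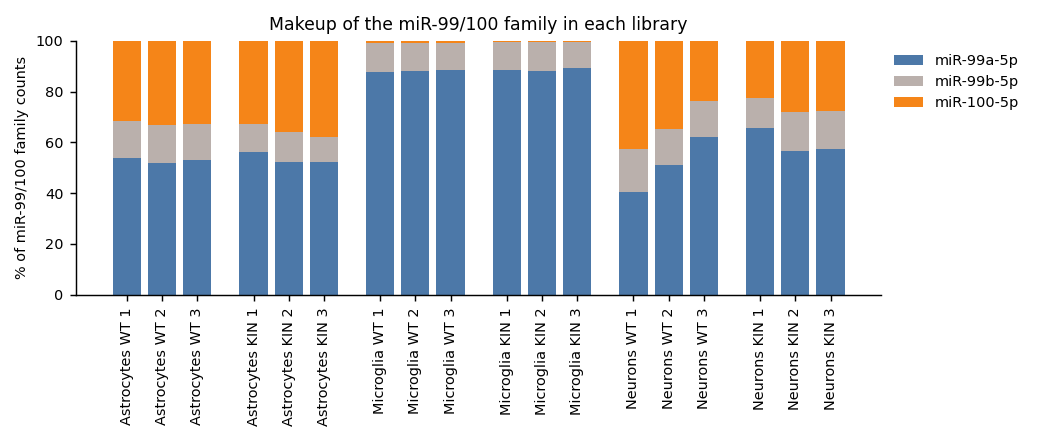
Percentage of the miR-99/100 family counts (vertical axis, from 0 to 100%) taken by miR-99a-5p, miR-99b-5p and miR-100-5p in each of the 18 libraries (bars). miR-100-5p takes 22.4% to 42.8% in astrocyte and neuron libraries and 0.342% to 0.918% in microglia libraries.

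The passenger strands name the locus, which the shared guide strand of miR-125b cannot, so they were read next. Their sequences differ within the seed, again in capitals.
miR-125b-1-3p, from chromosome 9: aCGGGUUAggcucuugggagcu
miR-125b-2-3p, from chromosome 16: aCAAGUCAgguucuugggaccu
miR-125b-1-3p had 23, 44 and 29 counts in Astrocytes WT and 31, 61 and 42 in Astrocytes KIN, but 1, 0 and 2 counts in Microglia WT and 1, 4 and 2 in Microglia KIN. miR-125b-2-3p had 5, 22 and 12 counts in Astrocytes WT and 20, 23 and 18 in Astrocytes KIN, and 14, 11 and 14 in Microglia WT and 16, 18 and 34 in Microglia KIN. The chromosome 9 strand therefore made up 71.1% of both in Astrocytes WT (96 of 135 counts, exact 95% binomial interval 62.7% to 78.6%) and 7.14% in Microglia WT (3 of 42 counts, 1.5% to 19.5%). It made up 68.7% in Astrocytes KIN (61.7% to 75.2%) and 9.33% in Microglia KIN (3.84% to 18.3%). Neuron libraries held 7 such counts in WT and 27 in KIN, of which 85.7% (42.1% to 99.6%) and 88.9% (70.8% to 97.6%) were of the chromosome 9 strand. These intervals cover at most counting error, on counts pooled over 3 libraries and taken as independent.

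miR-100-3p, the other passenger strand of the chromosome 9 cluster, had 6, 9 and 10 counts in Astrocytes WT, 19, 11 and 13 in Astrocytes KIN and 0 in all 6 microglia libraries. Against a floor of 3 counts over each microglia group, it was at least 8.49-fold lower in microglia than in astrocytes in WT and at least 15.7-fold lower in KIN. At the guide strand's level in microglia a passenger strand would not be detectable at this depth, since miR-100-3p made up 0.419% of the counts of both arms in Astrocytes WT. It also had 0 counts in the 3 Neurons KIN libraries and 2 counts in Neurons WT. In edgeR's quasi-likelihood test, miR-125b-1-3p was lower in microglia by a log2 fold change of -4.77 ± 0.65 (SE) in WT (adjusted p = 0.000315) and -4.22 ± 0.50 in KIN (adjusted p = 2.87e-05). miR-125b-2-3p gave 0.09 ± 0.51 (adjusted p = 0.902) and 0.15 ± 0.35 (adjusted p = 0.786), and miR-99a-3p gave 0.15 ± 0.43 (adjusted p = 0.812) and 0.41 ± 0.29 (adjusted p = 0.275). Of the 6 passenger strands, miR-100-3p and miR-125b-1-3p, both of chromosome 9, were called in each genotype, 2 of 6 beside 31.5% of all tested features in WT and 35.3% in KIN.

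**Figure D3:**
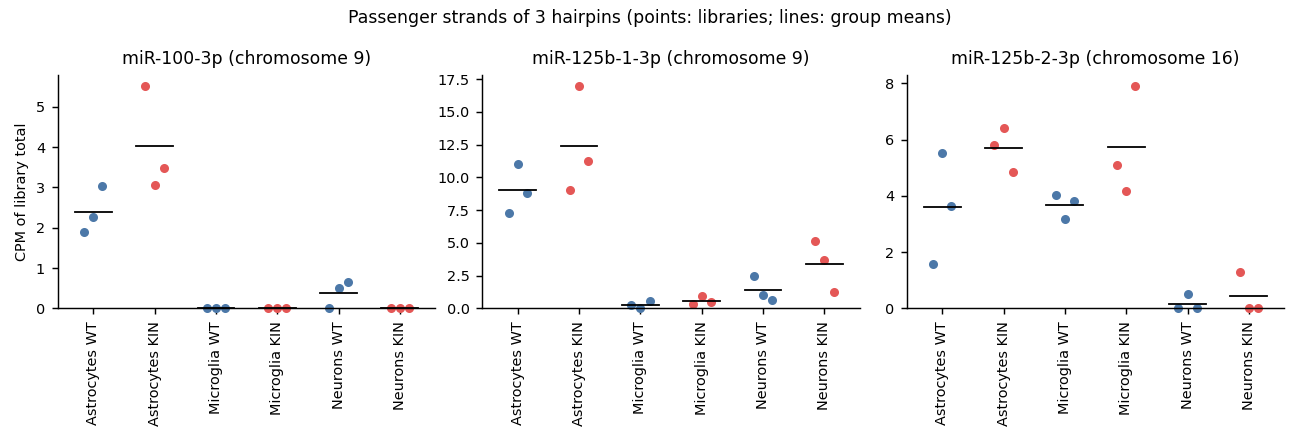
CPM of the library total for 3 passenger strands in the 18 libraries, with blue points for WT libraries, red points for KIN libraries and black lines for group means; each panel has its own axis from 0. In microglia the 2 strands of chromosome 9 are at 0 (miR-100-3p) or at most 0.927 CPM (miR-125b-1-3p), while miR-125b-2-3p of chromosome 16 is at 3.17 to 7.91 CPM.

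The noncoding hosts were read at the same places, as short fragments. Mir100hg-205 had 7, 5 and 4 counts in Astrocytes WT and 0 in each microglia library, at least 5.43-fold lower in Microglia WT against 3 counts over the group. It was called there, beside 31.5% of features. In KIN the bound was only 2.19-fold, on 6 counts over Astrocytes KIN, and the transcript could not be tested. In WT, Mir100hg-217 of the same host gave -0.59 ± 0.80 (edgeR, adjusted p = 0.580) and Mir99ahg-214 -0.63 ± 0.81 (adjusted p = 0.556). Other transcripts of Mir100hg and Mir99ahg that could be tested were not called in any comparison. Spaca6-203 and the hairpin gene Mir125a-201, which share the bases of miR-125a-5p, differed by at most 6 counts in any library, so a change of Spaca6-203 cannot be told from one of Mir125a. Likewise Mir125b-1-201 took 49.0% to 53.1% of the counts given to both Mir125b hairpin genes in all 18 libraries, microglia included. These hairpin features are therefore uncertain one by one. Reads were placed on mature miRNAs first and only the rest on later references, so hairpin and host counts lie outside those of the members. Over the 18 libraries Mir125a-201 had 43149 counts and Spaca6-203 had 43134, beside 49880 for miR-125a-5p. Levels, shares and ratios of the members leave such reads out. The hairpin gene Mir100-201 fell by 5.36 ± 0.44 on the log2 scale in Microglia WT against Astrocytes WT (edgeR, adjusted p = 9.41e-06), while Mir99a-201 gave 0.50 ± 0.23 (adjusted p = 0.120).

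Differences between fractions were then tested across all features. A call needed an adjusted p no higher than 0.05 together with a log2 fold change of 1 or more in size, on library totals scaled by TMM. Of the 5 members, 2 were called lower and none higher in Microglia WT against Astrocytes WT, where 31.5% of 6397 tested features were called and 19.3% were called lower. For 4 members the groups did not overlap on TMM-scaled CPM, beside 48.6% of features. miR-100-5p gave -5.29 ± 0.30 (edgeR, adjusted p = 7.48e-07) and miR-125b-5p -1.44 ± 0.18 (adjusted p = 0.000197). miR-125a-5p gave -0.95 ± 0.21 (adjusted p = 0.00522) and miR-99a-5p 0.73 ± 0.22 in the other direction (adjusted p = 0.0244), both short of the fold cutoff, and miR-99b-5p gave -0.45 ± 0.25 (adjusted p = 0.185). Leaving out Astrocytes WT replicate 2, the highest of its group for all 5 members, moved miR-99a-5p to 1.13 ± 0.18 and miR-99b-5p to 0.01 ± 0.19. The median over 418 mature miRNAs in this comparison was -0.28.

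In Microglia KIN against Astrocytes KIN, where 35.3% of 4570 features were called and 21.2% were called lower, 3 members were called lower. The groups did not overlap for 4 members, beside 52.8% of features. miR-100-5p gave -6.46 ± 0.30 (edgeR, adjusted p = 1.20e-08), miR-125b-5p -2.30 ± 0.15 (adjusted p = 2.81e-07) and miR-125a-5p -1.51 ± 0.18 (adjusted p = 4.03e-05). miR-99a-5p gave 0.26 ± 0.16 (adjusted p = 0.226) and miR-99b-5p -0.48 ± 0.18 (adjusted p = 0.0529). The 3 members called here kept their direction and call when libraries were scaled to mature miRNA counts alone, with miR-100-5p at -6.36 ± 0.30 and miR-125b-5p at -2.14 ± 0.23. Both miR-99/100 members of the other clusters thus stayed short of a call in either genotype. The let-7 partners fell less than miR-100-5p did. In WT, let-7e-5p gave -1.38 ± 0.26 and was called, while let-7c-5p gave -0.97 ± 0.20 and let-7a-5p -0.70 ± 0.21. In KIN, let-7c-5p gave -1.25 ± 0.17 and let-7e-5p -1.30 ± 0.19, both called, and let-7a-5p gave -0.71 ± 0.17 (edgeR, adjusted p = 0.0231 for let-7a-5p in WT and at most 0.00590 for the others). let-7a-5p and let-7c-5p also come from hairpins outside these clusters.

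All 5 members were called lower in Neurons against Astrocytes in both genotypes, beside 28.7% of 5916 features called in WT (18.5% lower) and 46.3% of 5001 in KIN (24.1% lower). The groups did not overlap for any of the 5, beside 53.2% of features in WT and 59.9% in KIN. In WT the log2 fold changes ran from -2.59 ± 0.40 for miR-99a-5p to -2.33 ± 0.33 for miR-125b-5p (edgeR, adjusted p of 0.00672 at most), and the median over 362 mature miRNAs was -2.66. In KIN they ran from -3.59 ± 0.20 for miR-100-5p to -2.76 ± 0.17 for miR-125b-5p (adjusted p of 3.82e-14 at most), and the median over 397 mature miRNAs was -3.43. When libraries were scaled to mature miRNA counts alone, no member was called in either genotype, and in KIN miR-99a-5p, miR-99b-5p, miR-125a-5p and miR-125b-5p turned to between 0.16 and 0.38. As a share of mature miRNA the 5 members together made up 15.3% ± 2.06 in Astrocytes WT and 16.2% ± 1.08 in Neurons WT, and 17.3% ± 0.310 and 16.1% ± 0.695 in KIN. The 3 let-7 partners and the 6 hairpin genes were called lower in both genotypes as well. The share of the 5 members in mature miRNA was 8.31% ± 0.106 in Microglia WT and 6.23% ± 0.701 in Microglia KIN.

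In Neurons against Microglia, miR-100-5p was the only member called higher, at 2.94 ± 0.48 in WT (edgeR, adjusted p = 0.00191) and 2.79 ± 0.36 in KIN (adjusted p = 5.64e-07). Of all features, 13.5% were called higher and 14.5% lower in WT (28% of 5166 in all), and 26.7% higher and 26.2% lower in KIN (53% of 4880 in all). On TMM-scaled CPM the groups did not overlap for any member, although miR-125b-5p overlapped on CPM of the library total, beside 46.3% of features in WT and 62.2% in KIN. miR-99a-5p (-3.20 ± 0.37 and -3.27 ± 0.28), miR-99b-5p (-1.95 ± 0.39 and -2.39 ± 0.28) and miR-125a-5p (-1.39 ± 0.32 and -1.43 ± 0.25) were called lower in both. miR-125b-5p gave -0.78 ± 0.32 (adjusted p = 0.1) in WT and -0.54 ± 0.21 (adjusted p = 0.0296) in KIN. On the scale of mature miRNA counts alone, miR-99b-5p, miR-125a-5p and miR-125b-5p turned upward in both genotypes, miR-125b-5p to 1.20 ± 0.41 in WT and 1.91 ± 0.31 in KIN, whereas miR-100-5p stayed higher (4.89 ± 0.52 and 5.30 ± 0.36) and miR-99a-5p lower (-1.24 ± 0.41 and -0.83 ± 0.31). Of the 6 hairpin genes, Mir100-201 was called higher in both genotypes (3.30 and 2.90), and Mir99a-201, Mir99b-201 and Mir125a-201 were called lower in both. Of the passenger strands, miR-99a-3p and miR-125b-2-3p were called lower in both genotypes and miR-99b-3p in KIN, while miR-125b-1-3p was called higher in KIN, at 1.98 ± 0.67 (edgeR, adjusted p = 0.0155), and could not be tested in WT. Neuron libraries also held 42.9 to 377 CPM of the myeloid miRNAs as a sum and little of the neuronal ones. Singly the myeloid ones differed. In Neurons against Astrocytes, miR-142a-5p (5.18 in WT and 4.27 in KIN) and miR-142a-3p (3.41 and 2.78) were called higher. miR-223-3p was called in neither genotype there, at 0.04 ± 0.65 in WT and below 0 in KIN. In Neurons against Microglia all 3 were called lower, miR-223-3p at -7.10 ± 0.63 in WT and -7.86 ± 0.42 in KIN. The part of myeloid or neuronal cells in the values of the members was not tested.

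**Figure D4:**
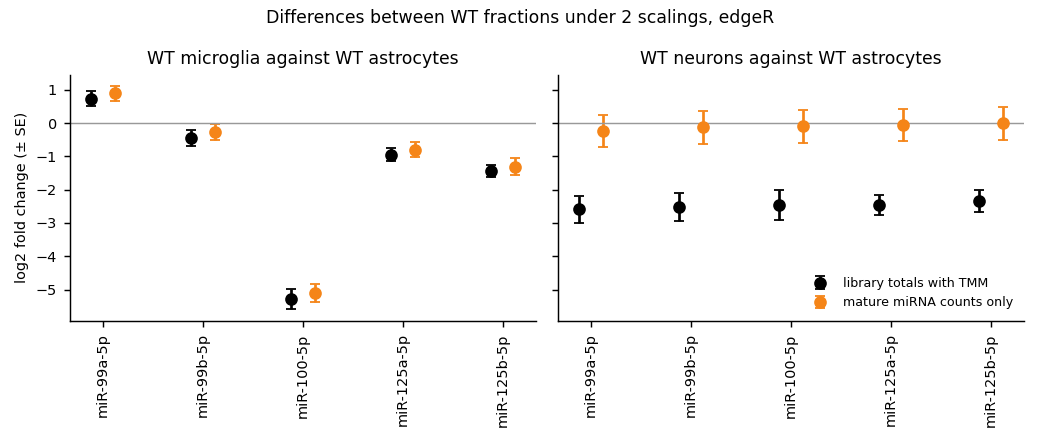
Log2 fold change of Microglia WT and of Neurons WT against Astrocytes WT for the 5 miRNAs (points, edgeR estimates; bars, SE), on library totals scaled by TMM (black) and on mature miRNA counts alone (orange). The microglia panel keeps its pattern on both scales, with miR-100-5p at -5.29 and -5.11, while the neuron panel moves from -2.59 to -2.33 up to -0.24 to -0.01.

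The effect of the Atxn2 knock-in was tested within each fraction. In astrocytes all 5 members had higher means in KIN, and 4 of them had an adjusted p of at most 0.05, beside 11.7% of 5694 features. miR-100-5p rose by 1.05 ± 0.18 on the log2 scale (edgeR, adjusted p = 0.0101) and was the only one also past the fold cutoff, beside 8.18% of features called in either direction and 1.79% called higher. miR-99a-5p rose by 0.95 ± 0.17 (adjusted p = 0.0117), miR-125b-5p by 0.89 ± 0.11 (adjusted p = 0.00287) and miR-125a-5p by 0.55 ± 0.16 (adjusted p = 0.0485), and miR-99b-5p gave 0.51 ± 0.20 (adjusted p = 0.110). The KIN and WT libraries did not overlap for miR-99a-5p, miR-100-5p and miR-125b-5p, beside 36.3% of features.

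Mature miRNAs as a class were higher in KIN astrocytes. Their median log2 fold change was 0.58, with 346 of 418 above 0, against a median of -0.19 over all features, and mature miRNA took 9.30% ± 0.971 of counts in KIN against 6.48% ± 1.66 in WT. On the scale of mature miRNA counts alone, no member was called, miR-100-5p stood at 0.37 ± 0.21 (edgeR, adjusted p = 0.171), miR-99a-5p at 0.26 ± 0.21 and miR-125b-5p at 0.16 ± 0.24, and miR-99b-5p and miR-125a-5p turned to -0.17 ± 0.22 each. The call of miR-100-5p rested on a fold change near the cutoff. It was lost without Astrocytes WT replicate 1 (0.84 ± 0.14, adjusted p = 0.0245), WT replicate 3 (0.98 ± 0.21, adjusted p = 0.0722), KIN replicate 1, the library low in Xist (1.04 ± 0.21, adjusted p = 0.0570), or KIN replicate 3 (1.06 ± 0.21, adjusted p = 0.0624). Without that KIN replicate 1, miR-99a-5p gave 0.85 ± 0.19 (edgeR, adjusted p = 0.0664), miR-125a-5p 0.48 (adjusted p = 0.136) and miR-125b-5p 0.84 ± 0.11 (adjusted p = 0.0198). miR-125b-5p had an adjusted p of at most 0.0325 whichever single library was left out. The oligodendrocyte miRNAs stood at 830.4 to 1496 CPM in Astrocytes WT and 1509.9 to 2148 CPM in Astrocytes KIN, and the myeloid ones at 10.2 to 12.6 and 25 to 48.5 CPM. Of the myeloid ones, miR-142a-3p was called higher at 1.96 ± 0.33 (edgeR, adjusted p = 0.00975). miR-142a-5p (1.53 ± 0.68) and miR-223-3p (0.70 ± 0.36) were not called. The neuronal ones overlapped as a sum, at 1354 to 3150 and 1036 to 2024 CPM, as did miR-9-5p, at 5031 to 7941 and 6166 to 6490 CPM. Singly they differed in direction. miR-138-5p gave 0.85 ± 0.17 (edgeR, adjusted p = 0.0167), while miR-124-3p gave -0.33 ± 0.37 and miR-128-3p -0.22 ± 0.29. Endothelial and mural miRNAs (miR-126a-3p, miR-126a-5p, miR-143-3p and miR-145a-5p) overlapped at 543 to 870 and 489 to 734 CPM. Erythroid ones (miR-451a, miR-144-3p and miR-486a-5p) overlapped at 26.7 to 47.0 and 25.9 to 61.0 CPM. The part of any of these in the rise was not tested.

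Ratios between members, which do not depend on scaling, were compared as well. The log2 ratio of miR-125b-5p to miR-125a-5p was 2.33 ± 0.12 in WT and 2.68 ± 0.12 in KIN, without overlap. The log2 ratio of miR-99a-5p plus miR-100-5p to miR-99b-5p was 2.54 ± 0.07 in WT and 3.02 ± 0.13 in KIN, also without overlap, beside 21 of all 36 ratio comparisons. So in both families the member of chromosome 17 had a smaller share in every KIN astrocyte library than in any WT one (exact permutation test, p = 0.1 each, adjusted p = 0.171). The ratio of miR-99b-5p to miR-125a-5p, both from chromosome 17, was -2.41 ± 0.15 in WT and -2.42 ± 0.05 in KIN and overlapped (exact permutation test, p = 1.00). No passenger strand was called in KIN astrocytes. Their log2 fold changes ran from 0.39 to 1.12 over all 6. The let-7 partners gave 0.59 ± 0.16 for let-7a-5p (edgeR, adjusted p = 0.0443), 0.52 ± 0.15 for let-7c-5p (adjusted p = 0.0486) and 0.36 ± 0.20 for let-7e-5p (adjusted p = 0.236). Of the 6 hairpin genes, only Mir100-201 was called, with 1.12 ± 0.19 (adjusted p = 0.00995). Transcripts of the noncoding hosts gave lower values in KIN without a call. For Mir100hg-205 this rested on 16 counts over Astrocytes WT and 6 over Astrocytes KIN. The median over all features was -0.19 here, with 364 features called lower and 102 higher. Mir100hg-205 gave -1.29 ± 0.77 (edgeR, adjusted p = 0.262), Mir100hg-217 -0.99 ± 0.68 (adjusted p = 0.329) and Mir99ahg-214 -1.79 ± 0.76 (adjusted p = 0.129). Spaca6-203, inseparable from Mir125a-201, gave 0.55 ± 0.15.

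In microglia no member was called or had an adjusted p of at most 0.05, beside 4.35% of 4940 features called and 4.78% at that adjusted p at any fold change. By unadjusted p, 2 of the 5 were under 0.05. miR-99a-5p gave 0.55 ± 0.18 (edgeR, adjusted p = 0.101) and miR-99b-5p 0.54 ± 0.19 (adjusted p = 0.117). For these 2 the groups did not overlap on TMM-scaled CPM, beside 27% of features, although they overlapped on CPM of the library total. miR-125b-5p gave 0.10 ± 0.17 (edgeR, adjusted p = 0.811), miR-125a-5p 0.05 ± 0.19 (adjusted p = 0.918) and miR-100-5p -0.08 ± 0.35 (adjusted p = 0.936). The median over 382 mature miRNAs was 0.46. The signs of miR-125a-5p and miR-125b-5p turned negative on library totals without TMM and on mature miRNA counts alone. On the latter they stood at -0.33 ± 0.26 (edgeR, adjusted p = 0.422) and -0.30 ± 0.23 (adjusted p = 0.402). In shares of mature miRNA, which use no TMM, miR-125b-5p made up 4.28%, 4.24% and 4.09% in Microglia WT and 3.31%, 2.56% and 2.58% in Microglia KIN. miR-125a-5p made up 1.18%, 1.18% and 1.19% against 1.03%, 0.641% and 0.659%. The log2 ratio of miR-99b-5p to miR-125a-5p, neighbours within 692 bases, was -1.89 in Microglia WT and -1.40 in Microglia KIN, without overlap, and that of miR-100-5p to miR-99a-5p was lower in every KIN library than in any WT one (exact permutation test, p = 0.1 each, adjusted p = 0.171). Of all 36 ratio comparisons, 21 had no overlap, and miR-100-5p had only 141 counts in Microglia WT and 134 in Microglia KIN. miRNAs typical of neural cells were lower in KIN microglia too. miR-124-3p was called at -1.28 ± 0.31 (edgeR, adjusted p = 0.0485), and miR-9-5p gave -1.24 ± 0.31 (adjusted p = 0.0559). miR-128-3p gave -0.79 ± 0.32 and miR-138-5p -0.45 ± 0.45. The part of other cells in the miR-100-5p ratio was not tested.

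In neurons no member was called, and no feature of 4535 was (0%). The groups overlapped for all 5, beside 10.8% of features that did not overlap. The log2 fold changes were 0.54 ± 0.40 for miR-99a-5p, 0.40 ± 0.29 for miR-125b-5p, 0.15 ± 0.39 for miR-99b-5p, 0.06 ± 0.31 for miR-125a-5p and -0.17 ± 0.43 for miR-100-5p (edgeR, adjusted p from 0.917 to 0.983), beside a median of 0.01 over 217 mature miRNAs. None of the 5 had an unadjusted p under 0.05, and DESeq2 called none. The SEs of 0.29 to 0.43 were larger than those of 0.11 to 0.20 in astrocytes, and the neuron libraries were the shallowest.

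**Figure D5:**
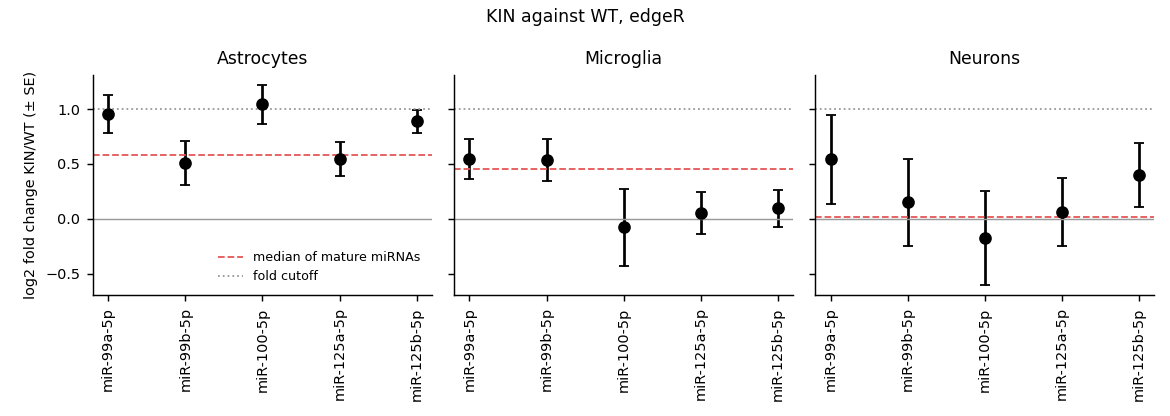
Log2 fold change of KIN against WT for the 5 miRNAs in each fraction (points, edgeR estimates; bars, SE), with the median of all tested mature miRNAs as a dashed red line and the fold cutoff of 1 as a dotted line. In astrocytes the points lie between 0.51 and 1.05 around a median of 0.58, and in microglia miR-99a-5p and miR-99b-5p lie near 0.55 while the other 3 lie between -0.08 and 0.10.

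Whether the KIN effect differed between the glial fractions was tested by an interaction term, the effect in microglia minus that in astrocytes. No member was called, beside 0.312% of 7053 features. miR-100-5p gave -1.09 ± 0.39 (edgeR, adjusted p = 0.271), miR-125b-5p -0.80 ± 0.21 (adjusted p = 0.105), miR-125a-5p -0.50 ± 0.26 (adjusted p = 0.530), miR-99a-5p -0.40 ± 0.28 (adjusted p = 0.707) and miR-99b-5p 0.04 ± 0.31 (adjusted p = 1.00). miR-100-5p and miR-125b-5p had an unadjusted p under 0.05 in edgeR (0.0119 and 0.00156). Without Astrocytes WT replicate 2 both were called, at -1.55 ± 0.37 (adjusted p = 0.0414) and -1.09 ± 0.21 (adjusted p = 0.0181), and DESeq2 called none.

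Across the 18 libraries miR-100-5p departed from the other members of its family, while the miR-125 members followed each other. Pearson's r of log2(CPM + 1) was -0.09 between miR-99a-5p and miR-100-5p, 0.23 between miR-99b-5p and miR-100-5p, and 0.93 between miR-99a-5p and miR-99b-5p. It was 0.93 between miR-125a-5p and miR-125b-5p, 0.92 between miR-99b-5p and miR-125a-5p of the chromosome 17 cluster, and 0.75 between miR-100-5p and miR-125b-5p. Over 92 mature miRNAs with a mean of at least 50 CPM, those most like miR-100-5p were miR-195a-5p (r = 0.967), miR-9-5p (0.95) and miR-335-5p (0.945). Those most like miR-99a-5p were miR-103-3p (0.985), miR-24-3p (0.981) and miR-29a-3p (0.980). miR-99b-5p was most like let-7a-5p (0.995), miR-30d-5p (0.995) and miR-23b-3p (0.990), and miR-125a-5p was most like miR-34b-5p (0.984), let-7e-5p of its own cluster (0.981) and miR-338-3p (0.972). miR-125b-5p was most like miR-181b-5p (0.982), miR-151-5p (0.977) and miR-219b-3p (0.973). These values describe 18 libraries that share 3 fractions, their depth and the low mature miRNA content of the neuron libraries.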

How the data were processed

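Small RNA was measured in 18 libraries. Per the labels and the study's methods, the authors trimmed reads with Cutadapt 4.6, placed them with Bowtie2 2.4.4 (local mode) on mature miRNA, tRNA, piRNA, noncoding and coding references of mm39 in turn, and counted them with HTSeq 2.0.2 without strand. The deposited counts are raw. Collapsing by molecular identifiers is not stated. The binomial intervals take each count as independent, so they are too narrow if copies of a molecule were counted. A further 36 per-library columns and 15 columns of the authors' contrasts (fold changes and p-values) were not used.

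Counts were tested with edgeR 4.0.16 (R 4.3.3), with features at 5 counts in 2 libraries, TMM and Benjamini-Hochberg adjustment over all features. SE is the log2 fold change over the root of F. DESeq2 1.42.0 was an alternative. The fits were tested on simulated data. The members and lists were chosen with earlier results of these data known. Named were the members, their passenger strands, let-7 partners, hairpin and host genes, the 3 miRNAs most like each, and any called feature of these lists. The study's methods give 3 mice per genotype, with the fractions taken in turn from single brains, but the labels do not say which libraries share a brain, so comparisons between fractions share animals without a stated pairing. Same-numbered libraries correlated above 0.1 in every pair only between Neurons WT and Astrocytes WT (0.149, 0.313 and 0.106), from the data alone, and the replicate block changed no call there. Microglia against Astrocytes gave 0.289, 0.346 and 0.0432 in WT but -0.258, -0.195 and -0.0478 in KIN. The low Xist of KIN replicate 1 in all 3 fractions also went with the replicate number.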

Additional observations from a re-analysis of the deposited data

How the results depend on the processing

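In Microglia against Astrocytes 2 members were called in WT (2 to 3 over the alternatives) and 3 in KIN (3 in every alternative). In KIN against WT astrocytes 1 member was called, against 2 by DESeq2, 0 on library totals, 0 on mature miRNA counts alone, 3 with every feature kept, 3 when 1 model held the 18 libraries together and 0 to 2 leaving out 1 library. On mature miRNA counts alone 0 were called in Neurons against Astrocytes of either genotype, and 2 in Neurons against Microglia of KIN. The interaction count was 0 to 2 leaving out 1 library. A replicate block changed none of 50 calls, with 1 member still called in KIN astrocytes, and the ratios moved by less than 1 SD under every alternative tried. Direction turned on mature miRNA counts alone for miR-99b-5p and miR-125a-5p in KIN astrocytes (-0.17 each), for miR-125a-5p (-0.33) and miR-125b-5p (-0.30) in KIN microglia and for miR-125a-5p in KIN neurons (-0.082). It turned there too in Neurons against Microglia for miR-99b-5p (0.025 in WT, 0.069 in KIN), miR-125a-5p (0.63, 0.99) and miR-125b-5p (1.20, 1.91), and in Neurons against Astrocytes of KIN for miR-99a-5p (0.16), miR-99b-5p (0.35), miR-125a-5p (0.28) and miR-125b-5p (0.38). On library totals miR-125a-5p (-0.18) and miR-125b-5p (-0.12) turned in KIN microglia, and with every feature kept miR-125a-5p there (-0.0048) and miR-100-5p in KIN neurons (0.0047). The interaction of miR-99b-5p was -0.063 on library totals, -0.11 with every feature kept and -0.068 in the joint model. Leaving out 1 library spanned -0.39 to 0.17 for miR-100-5p, -0.12 to 0.14 for miR-125a-5p and -0.061 to 0.16 for miR-125b-5p in KIN microglia, -0.046 to 0.46 for miR-99b-5p, -0.47 to 0.23 for miR-100-5p and -0.090 to 0.23 for miR-125a-5p in KIN neurons, and -0.44 to 0.16 for the interaction of miR-99b-5p. It also spanned -0.59 to 0.0062 for miR-99b-5p in Microglia WT against Astrocytes WT. Except where the alternative scales to mature miRNA, which removes the class-wide difference by construction, or leaves out a library, the cause was not tested. Depth limits the passenger strands, at most 61 counts a library for those of miR-125b, and all neuron values.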
